A study of Drosophila melanogaster with 3 samples.

Results

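The cytoplasmic ribosomal protein genes of Drosophila melanogaster were examined for binding of Sox14, a transcription factor of the Sox family whose gene responds to the moulting hormone ecdysone. Members were the protein-coding genes of the Ensembl BDGP6 annotation whose symbol begins with RpL (large subunit) or RpS (small subunit) followed by a number and optional letters. The rule found 84 genes among 13945 protein-coding genes on 6 chromosome arms, of which 47 belong to the large subunit and 37 to the small subunit. The symbols RpL37-1 and RpL37-2, with a copy number after a hyphen, were counted in, and a strict reading of the rule gave 82 genes. The rule used no measured value.

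Each cytoplasmic ribosome is built from a large and a small subunit, and each subunit joins ribosomal RNA with a fixed set of proteins, so these genes are active in nearly every cell. In flies many of them start transcription at a polypyrimidine initiator (TCT), and DREF and M1BP, which bind the DRE and their own promoter motif, are known at many of their promoters. Loss of a single copy of many of these genes slows growth and gives the Minute phenotype of short, thin bristles.

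The study mapped Sox14 by chromatin immunoprecipitation and sequencing (ChIP-seq) in 1 group of 3 biological replicates with 1 library each. The animals were whole white prepupae, pooled male and female and of unknown age, from a transgenic line carrying Sox14 with GFP at its C terminus, and an antibody against GFP recovered the chromatin. All 3 replicates shared this genotype and stage, and no second condition or control library was analysed here. Whole animals average all tissues, so binding in fewer cells and weaker binding in many cells cannot be told apart.

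The authors deposited, per replicate and for the pooled reads, a relaxed list of 30000 peaks that holds background by design. They also deposited an optimal list of 9316 peaks that passed a reproducibility threshold. The optimal peaks were the 9316 of highest signal among the pooled peaks, so the same number of highest peaks, here called the top peaks, was taken from each replicate. Between pairs of replicates 64.9% to 72.7% of the top peaks had a top summit of the other replicate within 100 bp. Signals are on a scale of their own in each list and were compared only within a list, mostly as ranks, where rank 1 is the strongest peak. A gene was counted as having a summit where the peak's highest point lay within 1 kb of any of its annotated transcription start sites (TSSs), which does not show that the factor acts on that gene.

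Sequences are shown for the summits of highest signal and for a duplicated pair with a strong and a weaker copy. The summit of highest signal near any member lay 895 bp upstream of RpS19b, a small subunit gene known as the germline-enriched copy of its pair. The next lay 24 bp inside RpL7, a large subunit gene. Both windows hold the summit and 50 bp on either side and are printed along the coding strand of the member from the RefSeq Release 6 (dm6) genome, RpS19b at chr3R:23934375-23934475 on the minus strand and RpL7 at chr2L:10200978-10201078 on the plus strand. In RpL7 the capitals mark the M1BP motif, read here on the opposite strand, and the E-box CACGTG, the site of Myc and its partners. The RpS19b window held none of the 6 motifs sought at summits.
RpS19b: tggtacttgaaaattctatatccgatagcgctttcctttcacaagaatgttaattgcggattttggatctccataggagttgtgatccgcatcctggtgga
RpL7: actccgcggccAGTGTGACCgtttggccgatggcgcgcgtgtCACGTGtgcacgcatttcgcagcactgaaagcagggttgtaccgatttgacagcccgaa
The promoters of RpL34a and RpL34b, both copies of a duplicated large subunit gene, are printed from 60 bases before to 30 bases from the canonical start along the minus strand, at chr3R:26059238-26059327 and chr3R:9401173-9401262. Their capitals mark the DRE in RpL34a and, in RpL34b, the CTTT of the TCT initiator followed by an E-box.
RpL34a: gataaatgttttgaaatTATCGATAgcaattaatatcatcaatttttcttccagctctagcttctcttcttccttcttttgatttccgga
RpL34b: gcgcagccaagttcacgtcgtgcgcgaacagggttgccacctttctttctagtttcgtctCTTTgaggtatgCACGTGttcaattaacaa

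Of the 84 ribosomal protein genes, 65 had an optimal summit. That share was 77.4%, with a 95% Wilson interval of 67.4% to 85.0%, against 33.5% of all 13945 genes and 33.3% (4612 of 13861) of the other protein-coding genes. With the relaxed pooled list the share was 90.5% (76 members), against 50.9% of all genes. The interval covers only the counting of genes, since neighbouring genes share summits, genes are not replicates and the read depth is unknown.

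The same held in each replicate, with a weaker result in replicate 2. A top summit lay near 85.7%, 66.7% and 83.3% of the members in replicates 1, 2 and 3 (72, 56 and 70 genes). Over all genes the shares were 35.6%, 33.3% and 35.3%. Replicate 2 was thus the lowest for the members, and the lowest share of the members was above the highest share of all genes. The members averaged 78.6% ± 10.4 and all genes 34.8% ± 1.25 (SD, n = 3 replicates). The difference was 50.1, 33.4 and 48.0 percentage points, 43.8 ± 9.13 on average, and positive in 3 of 3 replicates. An exact two-sided sign-flip permutation test over the replicates gave p = 0.25, the smallest that 3 replicates allow.

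**Figure D1:**
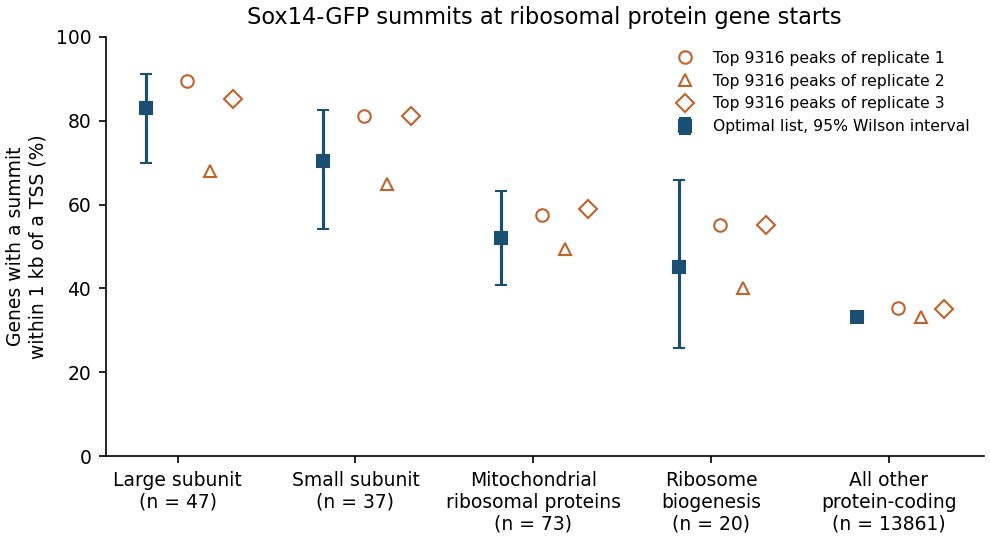
Share of genes (%) with a Sox14-GFP summit within 1 kb of a TSS, for both subunits and for other gene groups. Squares with bars give the optimal list with its 95% Wilson interval, and open symbols give the top peaks of each replicate. Both subunits lie above the other 3 groups plotted, and replicate 2 is the lowest of the open symbols in each subunit.

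By gene, 52 of the 84 members (61.9%) had a top summit in all 3 replicates, against 26.3% of the other genes. Another 17 had one in 2 replicates and 8 in 1, and 7 had none. In the relaxed lists a summit was found near 80, 77 and 79 members in replicates 1, 2 and 3, against 7540, 7527 and 7704 of all 13945 genes. Most members without a top summit in replicate 2 thus had a peak of lower rank there. Of 64 members with an optimal summit that were ranked in all 3 replicates, 44 (68.8%) had their poorest rank in replicate 2, and 10 each in replicates 1 and 3. Among 4491 other genes with an optimal summit the same held for 49.5% in replicate 2, 28.4% in replicate 1 and 22.1% in replicate 3. What sets replicate 2 apart at these genes was not tested.

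The large subunit had an optimal summit at 39 of 47 genes and the small subunit at 26 of 37. These shares were 83.0% (95% Wilson interval 69.9% to 91.1%) for the large subunit and 70.3% (54.2% to 82.5%) for the small subunit. The difference of 12.7 percentage points had a Newcombe interval of -5.23 to 30.7, so it was not larger than the counting error of the genes. In the top peaks the large subunit stood at 89.4%, 68.1% and 85.1% in replicates 1, 2 and 3, and the small subunit at 81.1%, 64.9% and 81.1%. The large subunit was higher within each replicate, although the ranges over replicates overlapped. The difference averaged 5.18 ± 2.72 points (SD, n = 3), and the exact two-sided sign-flip permutation test gave p = 0.25, the smallest it can give. Among single-copy genes the optimal shares were 85.4% (35 of 41) for the large subunit and 72% (18 of 25) for the small subunit, a difference of 13.4 points with an interval of -6.10 to 34.4.

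Summits at these genes were frequent but of ordinary strength. The best optimal summit of the 65 members had a median rank of 3940 among 9316 peaks (quartiles 2210 and 6167, range 147 to 9032). For the other genes with an optimal summit the median was 3586 (quartiles 1535 and 6069). The median signal was 184 at the members and 197 at the other genes. Large subunit genes had a median rank of 3523 and small subunit genes of 4144. By replicate, the highest peak within 1 kb of these 65 members had a median rank of 3635, 5307 and 3416 in replicates 1, 2 and 3, against 3416, 4003 and 3554 at the other genes with an optimal summit. By median the members thus ranked below the other genes in replicates 1 and 2 and above them in replicate 3.

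**Figure D2:**
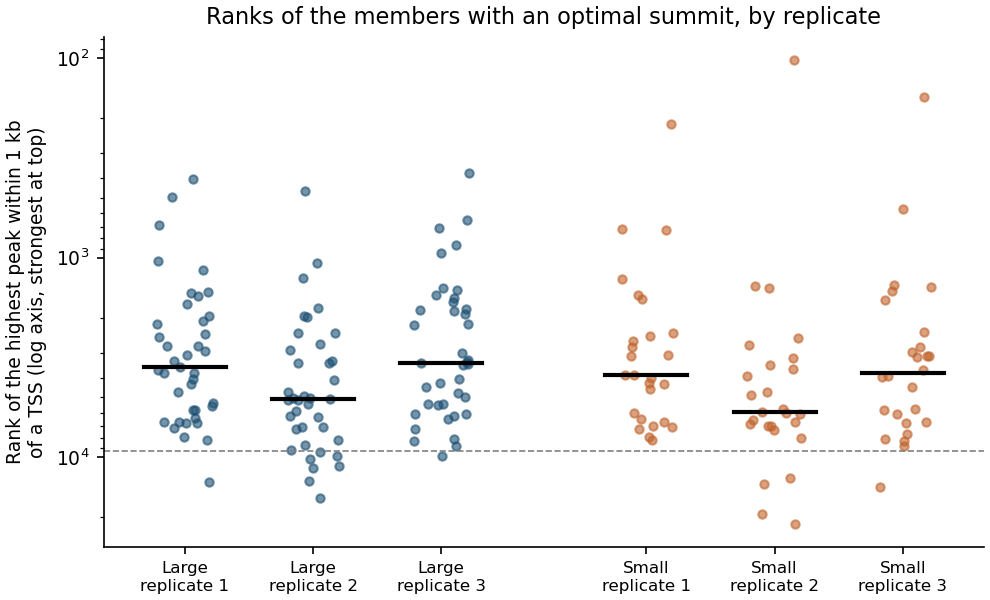
Rank of the highest peak within 1 kb of a TSS in each replicate's relaxed list, on a log axis with the strongest peaks at the top, for the large and the small subunit genes with an optimal summit. Points are genes, black bars are medians and the dashed line is rank 9316. In both subunits the median of replicate 2 is the poorest of the 3.

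The 10 members of highest optimal signal comprised 6 large subunit and 4 small subunit genes. RpS19b, on 3R, ranked 147 in the optimal list with a signal of 999, and its highest peak ranked 214, 102 and 156 in replicates 1, 2 and 3. All 3 replicates placed it above every other member, although its optimal summit lay 895 bp upstream and nearer to CG5854. RpL7 on 2L ranked 395 (signal 660) and stood at 401, 461 and 378 in the replicates. RpL34b ranked 750 (signal 491), with 683, 1068 and 648 in the replicates. RpL32, known as Rp49 and widely used as a reference gene in fly expression work, ranked 774 (signal 481) and stood at 499, 1788 and 710. In these 3 large subunit genes replicate 2 gave the poorest rank, as it did in most of the group.

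RpS27 of the small subunit ranked 861 (signal 452), with 714, 2534 and 571 in replicates 1, 2 and 3. RpS28b, also of the small subunit, ranked 1036 (signal 411), with 727, 1426 and 1376. RpL22, whose relative RpL22-like is known from the germline, ranked 1179 (signal 382), with 1033, 1970 and 944. These 3 genes also ranked poorest in replicate 2. RpS20 ranked 1245 (signal 372), with 1276, 1386 and 1406 in the replicates, a narrow spread. RpL19 ranked 1309 (signal 363), with 1159, 2711 and 864. RpL14 ranked 1513 (signal 333), with 1482, 1994 and 1601. The summits of 8 of these 10 genes lay 23 to 173 bp from a start of the gene, and those of RpS19b and RpS28b lay 895 and 779 bp upstream. Those of RpL32, RpS19b, RpS20 and RpS28b lay nearer to the start of another gene. For RpL32 and RpS20 the margin was small (156 against 153 bp and 173 against 160 bp). A second optimal summit nearer to RpS28b itself ranked 3939.

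Where a member had a summit, it usually sat just upstream of the start. The median distance from the best optimal summit to the nearest TSS of the gene was 49 bp in the members and 162 bp in the other genes with an optimal summit. It was within 100 bp in 48 of 65 members (73.9%), against 34.1% of the other genes. It lay upstream in 55 members (84.6%), downstream in 9 and exactly at a start in RpL36, against 76.8% upstream in the other genes. The signed median was -47 bp in the members and -112 bp in the other genes. The median distance was 53 bp in the large subunit and 45.5 bp in the small subunit. The members also had slightly more annotated starts (median 1.5 against 1) and were shorter (median 1344 bp against 2178 bp), and the part of this in the distances was not tested.

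**Figure D3:**
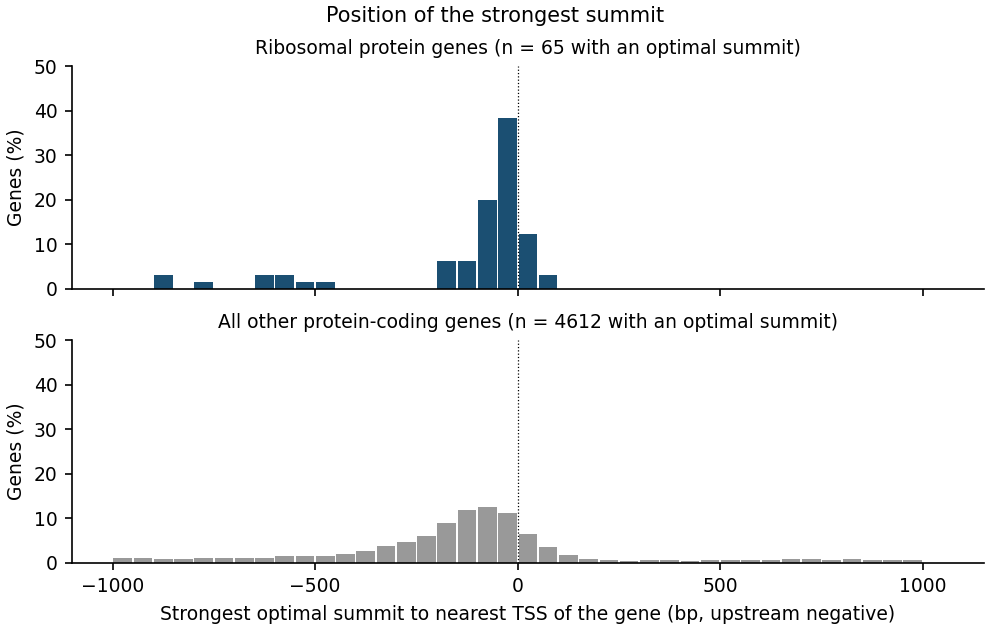
Distance in bp from the strongest optimal summit to the nearest TSS of the gene, in bins of 50 bp with upstream negative, for the 65 ribosomal protein genes (top) and 4612 other protein-coding genes (bottom) with an optimal summit. Bars give the percentage of genes. The members' summits gather in the bins next to the start, with a separate set of 8 at more than 500 bp upstream.

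Of the 65 summits, 45 lay in intergenic sequence, 17 in a 5′ UTR and 3 in an intron (RpL26 and RpS19b among them). A lone summit within 1 kb was found for 53 members, 2 summits for 10 and 3 for RpL23 and RpL34b. More than 1 summit was found for 18.5% of the members and 27.1% of the other genes with an optimal summit. At RpL34b the signals were 491 at 96 bp upstream, 184 at 918 bp downstream, beyond the gene's end, and 171 at 297 bp upstream. At RpL23 they were 318, 264 and 97.2 at 557, 350 and 146 bp upstream. The strongest summit was thus accompanied by a weaker one 201 bp away at RpL34b and 207 bp away at RpL23. RpL18 and RpS7 showed a like spacing of 203 and 201 bp. Whether such neighbours are separate sites was not tested.

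The member was the gene with the nearest start for 53 of the 65 best summits (81.5%), against 71.6% for the other genes. The remaining 12 summits lay nearer to a protein-coding gene on the opposite strand. At 8 of them the summit was more than 500 bp from the member. The neighbours were CG11597 (RpL10Ab), CG13531 (RpL23), Rab18 (RpL35), Rap2l (RpL39), dx (RpL7A), CG5854 (RpS19b), l(1)G0320 (RpS28b) and bys (RpS6). In the last pair RpS6, the ribosomal substrate of S6 kinase, lay 509 bp and bys, whose yeast relative acts in small subunit assembly, 40 bp from the summit. A second optimal summit nearer to the member itself was found for 4 of the 12. It ranked 8268 at RpL10Ab (-40 bp), 8643 at RpL23 (-146 bp), 8851 at RpL39 (22 bp) and 3939 at RpS28b (-56 bp). The strongest member by signal, RpS19b, had no such summit, and its peak lay 513 bp from CG5854.

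The other 4 of the 12 were close neighbours. The summit of RpL13 lay 110 bp upstream of that gene and 26 bp from Dref, which encodes the DRE-binding factor. That of RpL29 lay 105 bp from its start and 17 bp from Sgf29. RpL32 and CG7943 lay 156 and 153 bp from their shared summit, and RpS20 and CG17271 lay 173 and 160 bp from theirs. At these last 2 summits neither gene can be preferred. In all, 42 of the 65 best summits (64.6%) had the start of another protein-coding gene within 1 kb, against 56.9% for the other genes.

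Most best summits recurred in the replicates. A top summit within 100 bp was found in replicates 1, 2 and 3 for 59, 49 and 62 of the 65 members (90.8%, 75.4% and 95.4%), against 85.8%, 82.0% and 90.2% of the other genes with an optimal summit. It was found in all 3 for 44 members (67.7%), against 66.8% of the other genes, so at the site level the members recurred about as often. Of the remaining 21 members, 17 had it in 2 replicates and 4 in 1 (RpL35, RpS14a and RpS7 among them). Early by name among the 21 were RpL21, RpL23, RpL27A and RpL29. At RpL23 the highest peaks within 1 kb ranked 1510, 1270 and 1810 in the replicates, so a strong peak was present there in each but not always within 100 bp of the best summit. RpL21 ranked 6378 and 8777 in replicates 1 and 3 and had no peak in replicate 2.

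No optimal summit was found for 19 members, 8 of the large and 11 of the small subunit. A relaxed pooled summit was present at 11 of these. Among them were RpS15 (rank 9341), RpS15Aa (9508), RpS28a (10031), RpS9 (10616), RpL40 (10681), RpL38 (11529), RpS15Ab (11927), RpS3 (11955), RpL15 (13746) and RpL10 (23312). The optimal list ended at rank 9316, with RpL37-1 (9032) just inside and RpS15 just outside, so several of these lay close to the limit. RpS3 lines the entry of the messenger RNA channel on the small subunit, and RpL10 joins the large subunit late in its assembly.

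The other 8 had no pooled summit within 1 kb. RpL10Aa, RpL37-2, RpS10a and RpS18 had no summit there in any list, and the first 3 of these are copies of duplicated genes. The remaining 4 had top summits in 2 replicates nonetheless. RpS27A, which encodes ubiquitin fused to a small subunit protein, ranked 2750 and 5526 in replicates 1 and 3 and 19865 in replicate 2. RpL36A ranked 8807, 17109 and 5740. RpL9 ranked 7334 and 5426 in replicates 1 and 2 and had no peak in replicate 3. RpS30 ranked 6820 and 8798 in replicates 1 and 3 and had no peak in replicate 2.

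In these 4 genes the nearest pooled summit lay 2457 bp (RpL36A), 7079 bp (RpL9), 11555 bp (RpS27A) and 13921 bp (RpS30) away, although the top replicate summits stood within 65 bp of a start in each gene. The pattern of top summits in 2 or more replicates with no pooled summit was found at 1.48% of all genes (207) and 4.76% of the members. Among genes with top summits in 2 or more replicates it was 5.80% of the members (4 of 69) and 4.25% of the other genes. The promoter of RpS27A is printed because RpS27A had strong replicate summits and no pooled one. It is taken from the RefSeq Release 6 (dm6) genome at chr2L:10408292-10408381 on the plus strand, with the CTTT at the start in capitals.
RpS27A: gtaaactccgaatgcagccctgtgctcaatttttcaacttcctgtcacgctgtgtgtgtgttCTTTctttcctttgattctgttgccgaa

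In all, 12 of the 19 had a top summit in at least 1 replicate, 6 in 2 and 0 in 3. RpS27A, RpL40 and RpS30, which encode ribosomal proteins made as fusions with ubiquitin or a ubiquitin-like protein, were all among the 19, an observation made after their values were seen.

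The 9 duplicated pairs varied widely. An optimal summit lay near both copies in 4 pairs, near 1 copy in 4 and near neither in 1. With the top peaks shared by the remaining replicates, the count of pairs with both copies was 2 without replicate 1, 3 without replicate 2 and 1 without replicate 3. In all, 12 of the 18 copies had a summit (66.7%, 95% Wilson interval 43.8% to 83.7%), against 80.3% (53 of 66) of the single-copy members. Coding sequences of the copies were 65.7% to 98.2% identical and the 300-base promoters 54.5% to 61.2% over the aligned bases. Coding identity was highest in RpS15A (98.2%) and RpS14 (97.8%), where reads could be placed on the wrong copy, and how the authors treated such reads is not given in the sources used here.

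Copies of a pair could lie far apart in rank. RpS19b ranked 147, against 8487 for RpS19a, which stood at 6968, 6481 and 6706 in replicates 1, 2 and 3. The RpS19b summit lay 895 bp from that gene and nearer to CG5854, and with a window of 500 bp RpS19b had no optimal summit. RpL34b ranked 750 and RpL34a 4091, the RpL34a ranks being 4047, 11340 and 3380. The order of both pairs was the same in every replicate. RpS5a, the general copy, ranked 3170 and its germline-enriched partner RpS5b 7523. In replicates 1, 2 and 3 RpS5a stood at 3861, 3598 and 2351 and RpS5b at 7061, 8037 and 8063. RpS5a was the higher copy in all 3, although in replicate 2 its highest peak lay 880 bp upstream instead of at the start.

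RpS14a and RpS14b lie in tandem on X. RpS14b ranked 4836 and RpS14a 8937, and the replicate ranks were 4272, 6798 and 3901 for RpS14b and 7242, 19378 and 8797 for RpS14a. RpS14b was the higher copy throughout, but its peak in replicate 2 lay 965 bp downstream of a start, beyond the end of the gene. In the pairs with an optimal summit near 1 copy only, this copy was RpL10Ab (rank 6407), RpL37-1 (9032), RpS10b (1968) or RpS28b (1036). The summits given for RpL10Ab and RpS28b lay nearer to another gene, and those nearest to the members themselves ranked 8268 and 3939. RpS10b stood at 1611, 4904 and 1636 in the replicates, with no peak at RpS10a in any list. RpS28a ranked 12749, 6598 and 8378 in the replicates with its peak 520 to 593 bp downstream, against 727, 1426 and 1376 for RpS28b. RpS15Aa and RpS15Ab had no optimal summit, with ranks of 8261, 12061 and 6667 for RpS15Aa and 16930, 12694 and 15711 for RpS15Ab.

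**Figure D4:**
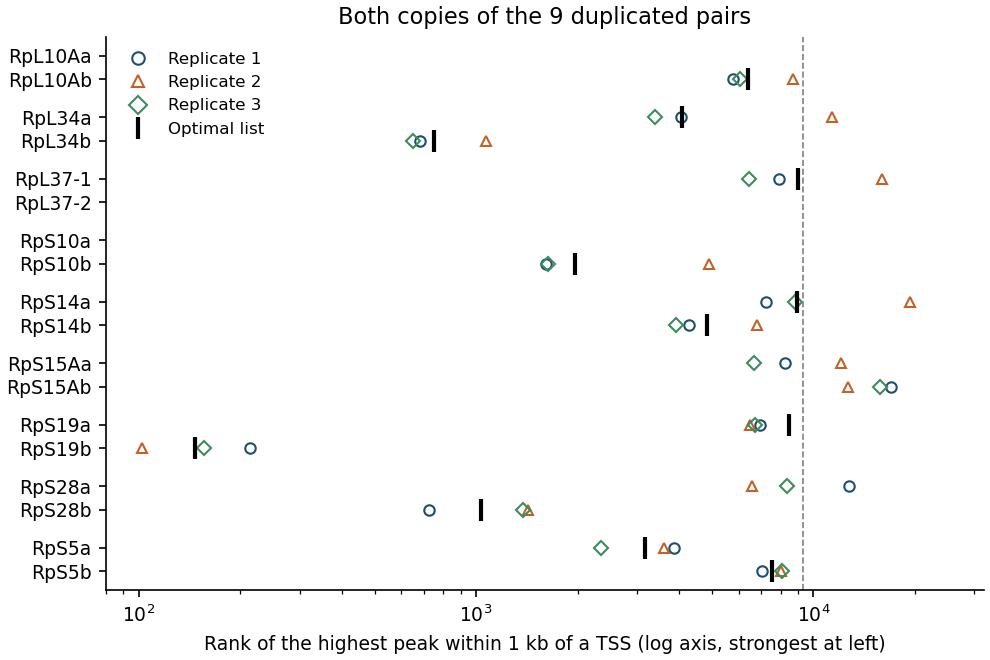
Rank of the highest peak within 1 kb of a TSS, on a log axis with the strongest at the left, for both copies of the 9 duplicated pairs. Open symbols are the 3 replicates, black bars the optimal list and the dashed line rank 9316, and copies with no mark had no peak in any list. The copies of RpS19 and RpL34 are the farthest apart among pairs with both copies in the optimal list, the RpS19b summit being nearer to CG5854.

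Of 2 Sox words sought under the members' summits, the hexamer was found at a lower share than in the other genes and the heptamer at a close one. The heptamer AACAAAG was found on either strand in 3 of 65 such windows (4.62%), against 6.26% of 3341 windows at the best summits of the other genes. In windows of 51 bp it was 3.08%, against 2.93%. The hexamer AACAAT was found in 2 (3.08%), against 12.4%. A window shared by a member and another gene counts in both sets, which together held 3365 distinct windows. All 3 heptamers lay at summits 570 to 862 bp from the member and nearer to another gene (RpL10Ab, RpL35 and RpL7A). Within 500 bp of a start, either word was found in 2 of 57 windows (3.51%, RpL13A and RpL26), against 18.1% of 2831 windows of the other genes, a split chosen after the data were seen. Within 100 bp it was 4.17% of 48 windows, against 17.2% of 1423. Beyond 500 bp the members were higher, with 3 of 8 windows (37.5%), against 18.3% of 791. No match says only that these letters are not in the window. The 5 windows with a word are printed along the member's coding strand from the RefSeq Release 6 (dm6) genome, with the word in capitals. They are RpL10Ab at chr3L:11822190-11822290, RpL35 at chrX:5671781-5671881, RpL13A at chr3R:5624353-5624453 and RpL26 at chr3L:18898913-18899013 on the plus strand, and RpL7A at chrX:6534160-6534260 on the minus strand. CTTTGTT in RpL35 is the heptamer on the opposite strand.
RpL10Ab: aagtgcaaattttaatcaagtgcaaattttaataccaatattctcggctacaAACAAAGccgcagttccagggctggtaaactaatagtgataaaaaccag
RpL35: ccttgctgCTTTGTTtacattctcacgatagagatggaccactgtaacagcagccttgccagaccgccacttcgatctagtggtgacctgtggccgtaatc
RpL7A: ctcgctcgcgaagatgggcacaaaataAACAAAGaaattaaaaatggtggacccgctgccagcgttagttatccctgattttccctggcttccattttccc
RpL13A: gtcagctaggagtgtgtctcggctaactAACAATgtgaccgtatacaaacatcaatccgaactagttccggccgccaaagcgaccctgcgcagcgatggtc
RpL26: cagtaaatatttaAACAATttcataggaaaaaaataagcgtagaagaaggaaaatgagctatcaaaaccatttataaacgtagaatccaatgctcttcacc

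Of the other promoter words, the DRE and the E-box were more frequent in the members' windows than in those of the other genes, and the GAGA repeat was less frequent. The DRE (TATCGATA) was found in 10 windows (15.4%), against 3.71% for the other genes. Among these were RpL27, RpL28, RpL36, RpL39, RpS10b, RpS12, RpS24, RpS25 and RpS29. These shares are not matched for distance, and in the other genes the DRE was most frequent close to the start. Within 100 bp of a start it was found in 9 of 48 members' windows (18.8%), against 7.31% of 1423. Beyond 100 bp and up to 500 bp it was found in 0 of 9, against 2.37% of 1857. Beyond 500 bp it was found in 1 of 8 (12.5%), against 1.90% of 791. The E-box CACGTG was found in 4 windows (6.15%: RpL7, RpL11, RpL24 and RpS6), against 1.02%. Of these, the RpS6 summit lay 509 bp from that gene and 40 bp from bys. The M1BP motif GGTCACACT was found in 3 windows (4.62%: RpL7, RpL27A and RpL37A), against 2.42%. The GAGA repeat GAGAG was found in 2 (3.08%), against 11.9%. All were sought on both strands, and a match is a description and not a site. DRE windows were thus the largest group, and a single window, that of RpL7, held 2 of these motifs.

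**Figure D5:**
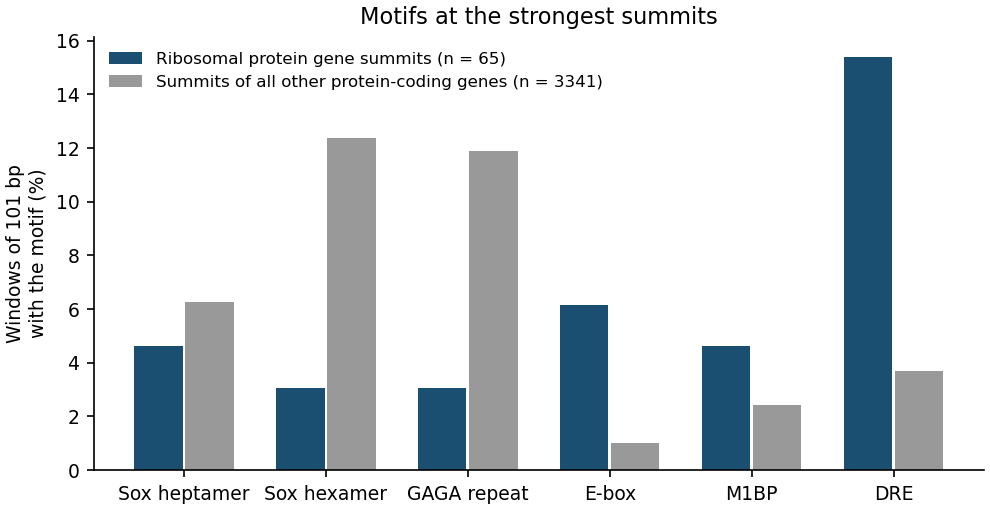
Percentage of windows, the strongest optimal summit with 50 bp on either side, that hold each of 6 motifs on either strand, for 65 ribosomal protein genes and for 3341 windows at the other protein-coding genes. The DRE is found at 15.4% of the members' windows, against 3.71%, and the Sox hexamer at 3.08%, against 12.4%. Windows are not matched for distance to the start, and a window shared by a member and another gene counts in both sets.

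The promoters of all 84 members, from 250 bases before to 50 bases from the canonical start, were searched with the same motifs and for the initiator. The TCT initiator, taken as CTTT with its C within 5 bases of the start, was found in 40 members (47.6%), against 5.72% of all genes. The DRE was found in 26 (31.0%), against 8.94%, and the M1BP motif in 8 (9.52%), against 5.87%. The E-box was found in 8 members (9.52%), against 4.26% of all genes. All 8 were of the large subunit (17.0% of its 47 genes), with 0 of 37 in the small subunit. The Sox hexamer was found in 35.7% of the members and 31.9% of all genes, the heptamer in 2.38% and 8.20%, and the GAGA repeat in 16.7% and 30.2%. TCT was present in 32 of the 65 members with an optimal summit (49.2%) and in 8 of the 19 without (42.1%). The DRE was present in 33.9% of those with and 21.1% of those without.

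Summits were also counted at genes of related function, beside the 33.5% of all genes. The mitochondrial ribosomal proteins, which build the separate ribosome of mitochondria, had an optimal summit at 38 of 73 genes (52.1%, 95% Wilson interval 40.8% to 63.1%). Their top-peak shares were 57.5%, 49.3% and 58.9% in replicates 1, 2 and 3, below the cytoplasmic members in each. Their median summit distance was 163 bp, against 49 bp for the cytoplasmic members, and the start of the gene itself was nearest in 34.2%. The 3 highest were mRpS23 (signal 2444, rank 11), mRpS10 (1999) and mRpL41 (1889), all above the highest cytoplasmic member.

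Outside the symbol rule, 6 of 9 ribosomal protein genes and genes named after them had a summit (66.7%, 95% Wilson interval 35.4% to 87.9%). The highest were the stalk protein RpLP0 (signal 309), RpLP0-like (242), listed here by its name, and the stalk protein RpLP1 (213). Translation elongation factors had a summit at 4 of 7 (57.1%, interval 25.1% to 84.2%), led by eEF1gamma (367), eEF2 (272) and eEF1alpha1 (260). Ribosome biogenesis genes had one at 9 of 20 (45%, 95% Wilson interval 25.8% to 65.8%, which holds the share of all genes), led by Ns2 (1056), pes (450) and RIOK1 (336). Among factors known at these promoters or in their regulation 7 of 8 (87.5%) had a summit, led by S6k (547), Mnt (323) and Dref (277, the summit shared with RpL13). Myc, which drives ribosome production and binds the E-box, had none in the optimal list.

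By arm, an optimal summit was found at 13 of 14 members on X, 12 of 16 on 2L, 12 of 18 on 2R, 10 of 13 on 3L, 17 of 22 on 3R and at the 1 member on the fourth chromosome. Over all protein-coding genes the shares were 35.1% on X, 29.7% on 2L, 32.9% on 2R, 35.0% on 3L, 35.1% on 3R and 26.2% on the fourth chromosome. Wilson intervals of the members overlapped between all arms. A gene for a small nucleolar RNA lies within 28 members on the same strand, and 24 of those (85.7%) had an optimal summit, against 41 of 56 (73.2%) of the members without such a gene. The Wilson intervals overlapped (68.5% to 94.3% and 60.4% to 83.0%). The members with such a gene were also longer (median 1888 bp against 1139 bp) and had more annotated starts (median 2 against 1). The part of this in the shares was not tested.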

How the data were processed

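Only the build dm6 peak lists were used, with Ensembl release 115 genes and RefSeq Release 6 sequence. Per the deposited text descriptions, replicate lists came from each replicate's own reads, pooled and optimal lists from the reads of all 3, and the optimal list was cut by irreproducible discovery rate (IDR). A further file, not described there, entered each list, and the labels name a possible control experiment. The aligner, peak caller, IDR threshold and read depth were not given in the sources used here. Chromatin was sonicated to 200 to 800 bp, per the labels. Each peak has the authors' signal, compared only within a list, as a rank or a value. It also has the authors' −log10 q value, used in 1 alternative, and the authors' summit offset, an other kind of value.

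Summits were matched to every annotated TSS within 1000 bp, and to each other within 100 bp. Motif windows held 50 bp on either side of the summit. Shares have 95% Wilson intervals, and their differences Newcombe intervals. Replicates were compared by an exact two-sided sign-flip permutation test. No set test was made. Matching and the sign-flip test were checked on simulated data. The members, lists, tests and motifs were chosen with earlier results of these data known. Named were the duplicated copies (symbols ending in a and b, with RpL37-1 and RpL37-2 added after seeing the data), the 10 highest signals, every member without an optimal summit, members with 3 or more summits, up to 5 by name of those missing from a replicate's top peaks, and up to 3 members of each other list. Values of some members that meet this rule are not reported here. Tor in the list of regulators matched no gene symbol. Python 3.11.15, NumPy 2.4.6, pandas 2.3.3, SciPy 1.17.1, Biopython 1.88 and matplotlib 3.10.9 were used.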

Additional observations from a re-analysis of the deposited data

How the results depend on the processing

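Under all 13 alternatives the share of ribosomal protein genes with a summit stayed above that of all genes, by 28.2 to 46.8 percentage points. From 77.4% it moved to 48.8% with the stronger 50% of the optimal list (all genes 20.6%) and 86.9% with pooled peaks of −log10 q of at least 2 (all genes 40.3%). With optimal peaks found in the top peaks of all 3 replicates it was 53.6% (all genes 22.9%). Leaving out 1 replicate, which uses the smaller set of top peaks shared by the others, gave 54.8% to 72.6% (all genes 24.4% to 28.3%). The share per replicate, 78.6% on average, was 45.6% with the 5000 highest peaks and 93.7% with all relaxed peaks. These sets hold fewer or more peaks by construction. Of all 13945 genes, 7540, 7527 and 7704 had a relaxed summit in replicates 1, 2 and 3. The share of all genes with the 5000 highest peaks was not computed. The difference of large minus small subunit was positive under all 13 alternatives, at 0.748 to 16.6 points, against 12.7. The median rank of 3940 became 5307 in the list of replicate 2, and the cause was not tested. Pairs with a summit at both copies fell to 1 to 3 when a replicate was left out, against 4, so that count depends on the peak set. The DRE was found in 26.2% of windows of 201 bp, against 15.4%, and the GAGA repeat in 0% of 51 bp and 12.3% of 201 bp, against 3.08%. Of 55 alternative values, 42 moved less than the criterion set for each and 13 moved more. Against the other genes, the direction changed for the heptamer (3.08% against 2.93% in 51 bp, 4.62% against 6.26% in the main windows) and for the median rank in replicate 3 (3416 against 3554). No paired analysis was possible because there is 1 group, so no replicate number is shared between groups, and gene sets were compared within each replicate. Rank-based sets cannot tell a replicate with weaker binding from a shallower one.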
